A study of Mus musculus with 27 samples.

Results

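Surfactant proteins and their alveolar type 2 cell partners were followed as 10 genes, chosen by symbol from the linear RNA table: Sftpa1, Sftpb, Sftpc, Sftpd, Abca3, Slc34a2, Napsa, Lamp3, Lpcat1 and Etv5. All 10 were among the 21742 gene symbols of that table, and all 10 passed the filter on low values. Each of 27 mice (BALB/c AnNHsd, 87 days old) gave 1 library of total RNA from its left lung lobe, in a severe asthma model that ran for 35 days. Saline mice (n = 5) were not sensitized, and CDG_HDM mice (n = 10) were sensitized through the lung with house dust mite extract and the STING-activating adjuvant cyclic di-GMP. Dex_CDGHDM mice (n = 6) were sensitized and given dexamethasone, a glucocorticoid, by the intraperitoneal route in 3 doses of 3 mg/kg on days 11, 18 and 25. AM155 mice (n = 6) were given an inhibitor of the microRNA miR-155 packed in lipid nanoparticles, by the intravenous route in 3 doses of 2 mg/kg on those days. The AM155 labels do not spell out that these mice were sensitized, and the labels name no group given empty nanoparticles. Values are in TPM, a share of all transcripts that is scaled by transcript length, so levels can be set against each other between genes.

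Pulmonary surfactant is a film of lipid and protein that lowers surface tension in the alveolus, and alveolar type 2 cells make it, store it in lamellar bodies and recycle it. The small hydrophobic proteins SP-B (Sftpb) and SP-C (Sftpc) spread the lipid film, whereas SP-A (Sftpa1) and SP-D (Sftpd) are collectins, secreted lectins that bind sugars on microbes and allergens. Lpcat1 remodels the main surfactant lipid, Abca3 pumps lipid into the lamellar body, Lamp3 lies in its membrane, Napsa is an aspartic protease that helps process SP-B, Slc34a2 takes up phosphate, and Etv5 is an ETS transcription factor downstream of FGF and ERK signalling. Not every member is restricted to this cell: club cells also make SP-A, SP-B and SP-D, and mature dendritic cells carry Lamp3.

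The genes of the 2 collectins are neighbours. On GRCm38, with GENCODE M21 annotation, Sftpa1 spans chr14:41131782-41136452 on the plus strand and Sftpd spans chr14:41172214-41185149 on the minus strand, with 35761 bases between them. Sftpc lies elsewhere on the same chromosome at chr14:70520949-70524081 (minus strand), and Sftpb lies at chr6:72304610-72314371 (plus strand). Promoter windows of RefSeq on GRCm38.p6, from 250 bases before to 50 after the start, were matched for 7 of the 10 members. Sftpc, Sftpd and Napsa had no window in that table. NKX2-1 is the lung transcription factor classically tied to surfactant promoters, and the letters GCNCTNNAG were searched for it on both strands. They occurred in the windows of Sftpa1 and Sftpb, 2 of 7 members, against 17.5% of all 32851 windows. Both stretches are shown because Sftpa1 was called higher in the sensitized lung and Sftpb was not. They are 200 bases upstream, at chr14:41131588-41131787 and chr6:72304410-72304609, both on the plus strand, with the NKX2-1 matches in capitals. The Sftpb capitals hold 2 overlapping matches, 1 per strand.
Sftpa1: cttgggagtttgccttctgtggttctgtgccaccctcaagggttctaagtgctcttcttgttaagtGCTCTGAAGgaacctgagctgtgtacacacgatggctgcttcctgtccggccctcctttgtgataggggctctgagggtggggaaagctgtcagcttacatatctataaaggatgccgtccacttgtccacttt
Sftpb: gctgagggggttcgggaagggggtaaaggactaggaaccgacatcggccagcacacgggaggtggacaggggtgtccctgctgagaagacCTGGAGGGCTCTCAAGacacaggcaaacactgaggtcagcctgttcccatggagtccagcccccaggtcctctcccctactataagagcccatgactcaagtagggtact
The match in Sftpa1 began at position -134 from the start, and those in Sftpb at -110 and -103, followed by a forkhead match (FOXA, TGTTTNC) at -88.

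Other motifs were searched in the same 7 windows on both strands, as a description of letters and not of binding. FOXA letters were in 3 members (Sftpb, Lamp3 and Etv5) against 20.5% of all windows. The STAT letters TTCNNNGAA were in Lamp3 alone among the 7, against 8.30% of all windows. The C/EBP letters TTNNGNAA were in Sftpb and Slc34a2, against 40.7%, and the ETS letters CCGGAA in Abca3, against 14.9%. A glucocorticoid receptor motif was in no member window and in 0.475% of all windows. An NF-kB motif was in 6 of the 7 windows, and in 50.8% of all windows.

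Because 1 treatment targeted miR-155, the 3′ UTRs of the members were searched for the letters complementary to its seed. The mature strand, miR-155-5p of RefSeq, lies at chr16:84714143-84714165 on the plus strand, with its seed (bases 2 to 8) in capitals below. Sites with AGCATTA were found in 3 of 10 members, Sftpa1, Lpcat1 and Etv5, against 9.76% of 16935 tested genes with an annotated 3′ UTR. The 23 bases around each site are shown with the match in capitals.
miR-155-5p: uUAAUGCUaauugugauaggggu
Sftpa1 site: ctacccaaAGCATTAcctataac
Lpcat1 site: tcaccttcAGCATTAcctggttt
Etv5 site: tgctagctAGCATTActggcttc
The longest annotated 3′ UTRs of these genes had 2006, 1884 and 2161 bases. Slc34a2 and Lamp3, whose 3′ UTRs were of similar length (2034 and 2009 bases), had no such letters.

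Linear and circular values together filled less than the whole TPM scale, and the remainder was 10.1% ± 0.705 (SD) in Saline and 20.5% ± 4.94 in CDG_HDM libraries. It was 20.1% ± 4.85 in AM155 and 18.1% ± 5.17 in Dex_CDGHDM libraries. A larger remainder lowers the TPM of every listed gene, so the results below also carry values from 3 other scalings of the linear table. These are a common sum per library, the median of ratios to a reference library, and quantile normalization. The circular Sftpc row took up a large part of the scale in 3 libraries, AM155 5, AM155 6 and Dex_CDGHDM 4, and values without these are given where a result rests on them. TPM keeps no read counts, so the depth behind a value is unknown.

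The 10 genes spanned a wide range of levels. Sftpc was the third most abundant linear RNA of the lobe, with 18577 ± 827 TPM in the 5 Saline mice and 19607 ± 2768 TPM in the 10 CDG_HDM mice (mean ± SD). The 6 Dex_CDGHDM mice had 19235 ± 2187 TPM of Sftpc and the 6 AM155 mice had 15645 ± 2258 TPM. Sftpa1 ranked 27, Sftpd 82, Slc34a2 109 and Sftpb 260 by mean TPM. Napsa, Abca3, Lamp3 and Lpcat1 ranked between 486 and 781, and Etv5, the transcription factor, came last at 1621. Together the members made up 2.74% ± 0.115 of linear TPM in Saline mice and 3.35% ± 0.363 in CDG_HDM mice. The share was 3.41% ± 0.270 with dexamethasone and 2.97% ± 0.197 in the AM155 group.

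In Saline mice the order of mean TPM was Sftpc, Sftpa1, Slc34a2, Sftpd, Sftpb, Abca3, Napsa, Lamp3, Lpcat1 and Etv5. Neighbours in that order had separate ranges except for Abca3 with Napsa, and Lamp3 with Lpcat1. Sftpd changed its place: it lay below Slc34a2 in all 5 Saline mice, and above it in 9 of 10 CDG_HDM, 6 of 6 AM155 and 6 of 6 Dex_CDGHDM mice. Lamp3 lay above Lpcat1 in 3 of 5 Saline mice and in all mice of the other groups. Napsa lay above Abca3 in 2 of 5 Saline, 10 of 10 CDG_HDM, 5 of 6 AM155 and 4 of 6 Dex_CDGHDM mice.

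**Figure D1:**
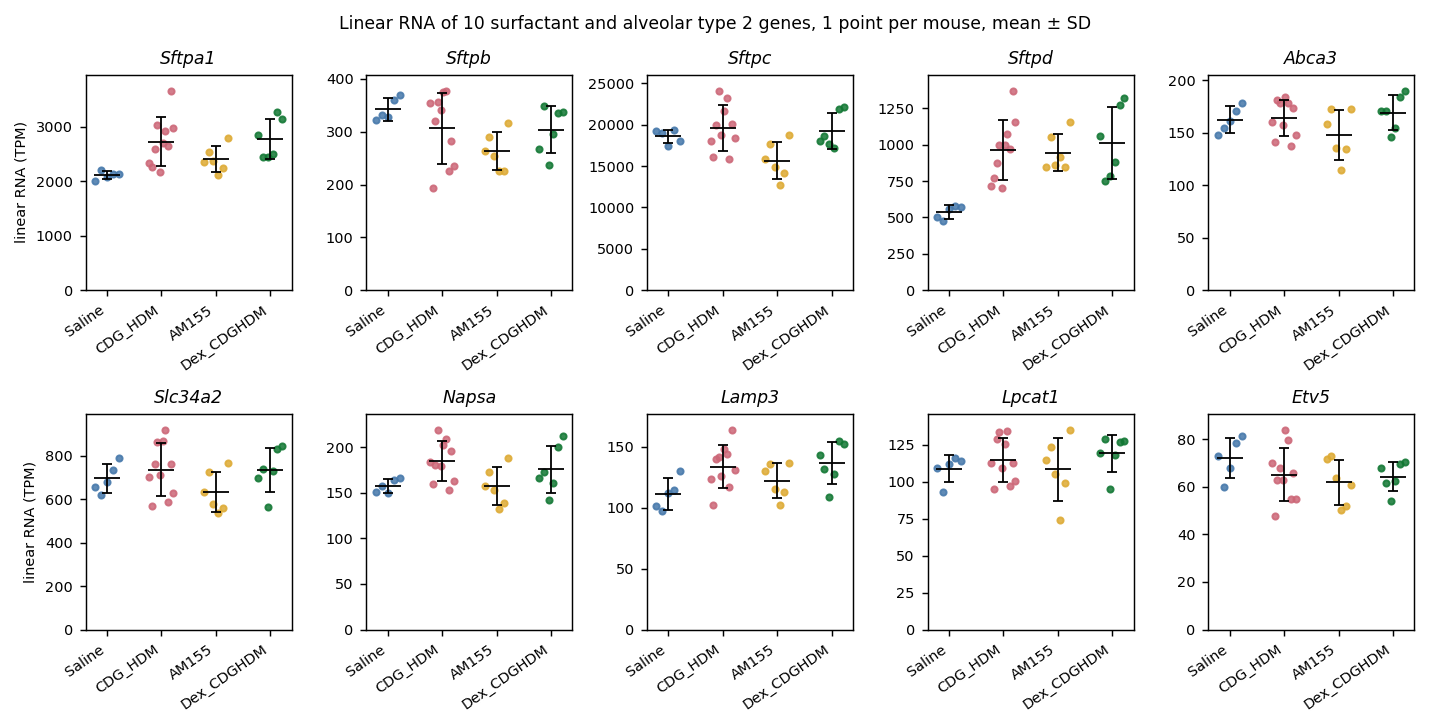
Linear RNA of each gene in TPM (vertical axes, each from 0) by group, 1 point per mouse, with the mean and SD as bars. The Sftpd points of Saline mice, at 477 to 582 TPM, lie below those of every other mouse, while the Sftpc, Abca3 and Slc34a2 points of Saline and CDG_HDM mice overlap.

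CDG_HDM against Saline asks what sensitization changed. In the deposited values the 2 collectin genes and Lamp3 were higher in the sensitized lung. Sftpb, Sftpc and the lipid handling genes were not called in either direction on that scale. Of the 10 members, 3 were called higher, against 9.35% of the 17437 genes tested, and 0 lower, against 22.8%. The call was an adjusted p under 0.05 in limma, over all genes tested. The median log2 change was 0.07 for the members and -0.10 for all genes.

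Sftpd, which encodes SP-D, changed most. Its level in the Saline mice numbered 2, 4, 5, 8 and 10 was 502, 477, 557, 582 and 572 TPM, and in CDG_HDM mice it ran from 705 through a median of 983 to 1368 TPM. All 10 sensitized mice thus lay above all 5 Saline mice, a separation upward that 5.06% of all tested genes showed. The means were 538 ± 45.9 and 963 ± 207 TPM (SD), a log2 change of 0.81 ± 0.141 (SE, limma adjusted p = 4.45e-05). The change lay between 0.59 and 0.98 over all settings tried.

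Sftpa1, which encodes the other collectin, rose by less. Saline mice had 1996, 2200, 2082, 2136 and 2131 TPM, and CDG_HDM mice ran from 2161 through a median of 2673 to 3654 TPM. The groups met at their edges, since the lowest sensitized mouse lay below the highest Saline mouse. The log2 change was 0.35 ± 0.104 (SE, limma adjusted p = 0.00906). It passed in each fit that left out 1 library, with adjusted p values of 0.00408 to 0.0292. Club cells can also make both collectins, and their markers, given further on, were lower in CDG_HDM mice. The part of club cells in the collectin values was not tested.

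Lamp3, a protein of the lamellar body membrane, was the third call. Its level was 101, 97.6, 113, 114 and 131 TPM in Saline mice, and from 102 through 136 to 164 TPM in CDG_HDM mice. The groups overlapped, and the log2 change was 0.26 ± 0.0995 (SE, limma adjusted p = 0.0441). That call was lost on leaving out Saline 2, 4, 5 or 8 or CDG_HDM 5, 7, 9, 10, 13 or 14, 1 at a time, with adjusted p values of 0.0560 to 0.122. Mature dendritic cells also express Lamp3. Of 10 of their markers 6 rose, against 9.35% of all genes, among them Fscn1 (1.14), Ccl22 (1.01) and Cacnb3 (0.64) on the log2 scale. In all, 8 had changes above 0, and 0 were called lower, against 22.8%. Ccr7 and Socs2 had lower means in CDG_HDM mice (13.0 and 45.8 TPM) than in Saline mice (18.6 and 51.3 TPM). The summed TPM of the 10 markers was 219 to 261 in Saline and 253 to 343 in CDG_HDM mice. The part of these cells in the Lamp3 result was not tested.

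Sftpb, whose hydrophobic protein is required for breathing after birth, was not called. It stood at 322, 331, 327, 360 and 370 TPM in Saline mice and ran from 193 through 331 to 377 TPM in CDG_HDM mice. The medians were alike, and 5 of 10 sensitized mice lay below every Saline mouse. The log2 change of Sftpb was -0.19 ± 0.134 (SE, adjusted p = 0.283).

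Sftpc ranged from 17419 to 19307 TPM in Saline and from 15835 to 24047 TPM in CDG_HDM mice, a log2 change of 0.07 ± 0.109 (adjusted p = 0.682). Its 95% interval ran from -0.16 to 0.29. Slc34a2 (0.07), Lpcat1 (0.07) and Abca3 (0.0084) had adjusted p values of 0.656 to 0.956. Etv5 had a log2 change of -0.16 (adjusted p = 0.295) and Napsa one of 0.22 (adjusted p = 0.0797). Napsa passed without the mouse CDG_HDM 12 (adjusted p = 0.0455).

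How many members were called depended on the scaling, and no member fell under any of the scalings. With a common sum 8 of 10 rose (26.2% of all genes), with the median of ratios 6 (22.4%) and with quantile normalization 6 (20.7%). The members' median change was then 0.23, 0.19 and 0.23, and that of all genes 0.04, 0.01 and -0.01. Over all genes the deposited values gave 1631 higher and 3976 lower calls, whereas the common sum gave 4567 and 2705. Napsa passed under all 3 scalings, with log2 changes of 0.30 to 0.38. Lpcat1 also passed under all 3, with 0.18 to 0.23. Sftpb passed under none, and Etv5 was at 0.0044 under the common sum. The 8 members called under the common sum thus included Sftpc, Abca3 and Slc34a2, which were not called as deposited.

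**Figure D2:**
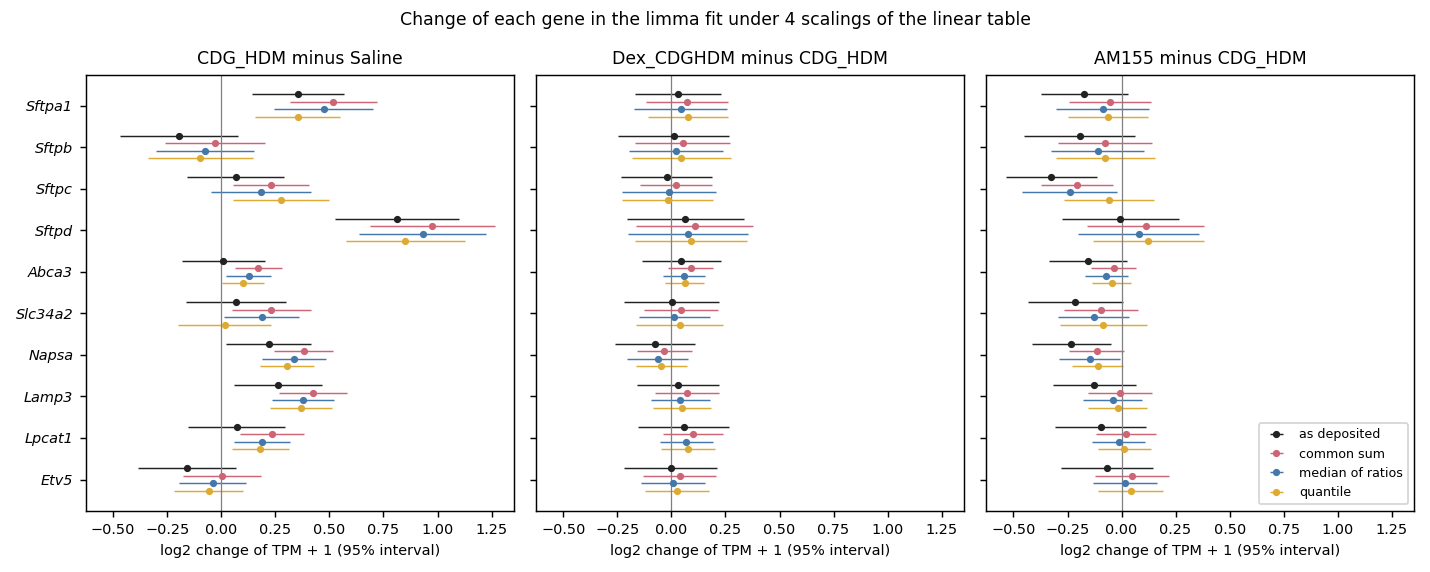
Log2 change of TPM + 1 (horizontal axes, with 95% intervals) of each gene in 3 comparisons, in black as deposited and in colour under 3 other scalings. Sftpd stands at 0.81 or above in the left panel under each of the 4 scalings, and in the middle panel every interval of the deposited values includes 0.

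Ratios between members do not depend on the scale of a library, so each of the other 9 genes was divided by Sftpc in the same mouse. The ratios share that denominator and are not independent of each other. Sftpc itself was among the members called higher with a common sum. Ratios to Sftpc were not computed for genes outside the 10, so no share of all genes stands beside these results. Sftpd stood at 2.90% ± 0.319 of Sftpc in Saline mice (SD, range 2.52 to 3.20%) and at 4.95% ± 1.06 in CDG_HDM mice (range 3.75 to 6.80%). All 10 sensitized mice lay above the Saline range, a log2 difference of 0.75 (exact permutation p = 0.000333 from both sides, the smallest that the design can give, 0.00899 adjusted over 27 ratio tests). Sftpa1 stood at 11.4% ± 0.638 in Saline and 14.0% ± 2.22 in CDG_HDM mice, with 9 of 10 above the Saline range (exact p = 0.0137, adjusted 0.0410). The highest were CDG_HDM 12, 13 and 14, at 16.7, 18.2 and 16.2%, with the other CDG_HDM mice at 14.1% or below. In mice 12, 13 and 14 Sftpd stood at 6.12, 6.80 and 6.29% of Sftpc, with the others at 4.79% or below. The cause of this split within the group was not tested. Napsa went from 0.850% ± 0.0487 to 0.946% ± 0.0437 of Sftpc (exact p = 0.00200, adjusted 0.0135).

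Sftpb fell short of the threshold relative to Sftpc as well, at 1.84% ± 0.144 in Saline and 1.55% ± 0.241 in CDG_HDM mice. There 7 of 10 sensitized mice lay below the Saline range (exact p = 0.0323, adjusted 0.0727). Slc34a2, Abca3 and Lpcat1 had log2 differences from -0.06 to 0.0051 relative to Sftpc, with exact p values of 0.371 to 0.971. Lamp3, called higher in TPM, did not pass relative to Sftpc, at a log2 difference of 0.20 (exact p = 0.0420, adjusted 0.0871). Etv5 stood at -0.23 (exact p = 0.0303, adjusted 0.0727).

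**Figure D3:**
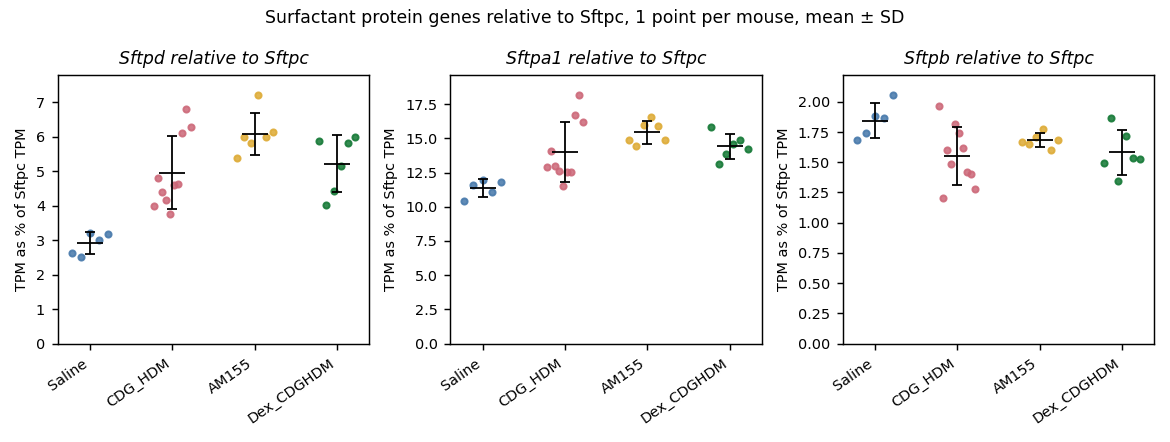
TPM of Sftpd, Sftpa1 and Sftpb as a percent of Sftpc TPM in the same mouse (vertical axes from 0) by group, 1 point per mouse, with mean and SD. Sftpd is at 2.52 to 3.20% in Saline mice and at 3.75% or above in all others, whereas the Sftpb groups overlap.

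Dexamethasone was compared with sensitization alone in Dex_CDGHDM against CDG_HDM. No member was called in either direction, against 0.00573% of all genes, where 1 of 17437 passed. At an unadjusted p under 0.05 the count of members was also 0. Sftpd ran from 752 through 970 to 1323 TPM in Dex_CDGHDM mice, within the range of the CDG_HDM mice. Its log2 change was 0.06 ± 0.133 (SE), with an interval from -0.21 to 0.34. The members' changes lay between -0.08 (Napsa) and 0.06 (Sftpd), and each limma adjusted p was 1.00. Sftpc had an interval from -0.23 to 0.19 and Sftpa1 one from -0.17 to 0.23.

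AM155 against CDG_HDM sets mice given the miR-155 inhibitor against sensitization alone, and rests on the same CDG_HDM mice as the comparison above. With no group named as given empty nanoparticles, the inhibitor and its carrier cannot be told apart. Again 0 of 10 members were called, against 0.103% of all genes, although all 10 had log2 changes below 0 in the deposited values. Sftpc ran from 12703 through 15310 to 18795 TPM in AM155 mice and from 15835 through 19376 to 24047 TPM in CDG_HDM mice. The groups overlapped, and the log2 change of Sftpc was -0.33 ± 0.103 (SE, unadjusted p = 0.00368, limma adjusted p = 0.548). Napsa also had an unadjusted p under 0.05, with a log2 change of -0.23 (p = 0.0150, adjusted p = 0.619). Sftpd stood at 844 through 888 to 1153 TPM, a log2 change of -0.0062 with an interval from -0.28 to 0.26.

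The members with a miR-155 site had log2 changes of -0.17 (Sftpa1), -0.10 (Lpcat1) and -0.07 (Etv5), with limma adjusted p values of 0.684, 0.749 and 0.817. Members without a site included Slc34a2 at -0.21, Sftpb at -0.19, Abca3 at -0.15 and Lamp3 at -0.13. The direction rested partly on the scale. With a common sum 7 members were below 0, with the median of ratios 8 and with quantile normalization 7. Without AM155 5, AM155 6 and Dex_CDGHDM 4 the change of Sftpc was -0.24 (adjusted p = 1.00), and 8 members were below 0.

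Relative to Sftpc, all 9 other members stood higher in AM155 than in CDG_HDM mice, by 0.09 to 0.32 on the log2 scale. Sftpc, the shared denominator, had the lowest change of the 10 members in TPM (-0.33), and the median change of all genes was -0.08. A typical gene thus also stood higher relative to Sftpc, and such ratios were not computed for genes outside the 10. By exact permutation tests 6 of the 9 ratios passed, those of Lpcat1, Abca3, Slc34a2, Lamp3, Napsa and Etv5. Lpcat1 stood at 0.588% ± 0.0315 of Sftpc in CDG_HDM and 0.689% ± 0.0539 in AM155 mice (exact p = 0.000749, adjusted 0.0101), with 5 of 6 above the CDG_HDM range. Abca3 stood at 0.841% ± 0.0542 and 0.945% ± 0.0406 (exact p = 0.00125, adjusted 0.0112). Without AM155 5, AM155 6 and Dex_CDGHDM 4 all 9 differences remained above 0, and 2 passed, Lpcat1 (adjusted 0.0135) and Abca3 (adjusted 0.0202). The ratio of Sftpd was 6.08% ± 0.610 in AM155 mice (adjusted 0.0727). In Dex_CDGHDM mice none of the 9 ratios passed, and at an unadjusted p under 0.05 the count was also 0.

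Dex_CDGHDM against AM155 gave 0 calls of 10, against 0.0803% of all genes, with Sftpc at a log2 difference of 0.30 ± 0.115 (SE, limma adjusted p = 0.498). The treated groups were also set against the Saline mice, which they share with the comparison of sensitization. In Dex_CDGHDM mice 2 members were called higher, against 7.59% of all genes: Sftpd with a log2 change of 0.88 ± 0.156 (limma adjusted p = 9.49e-05) and Sftpa1 with 0.39 ± 0.115 (adjusted p = 0.0134). Both genes lay above every Saline mouse in all 6 Dex_CDGHDM mice, as 5.28% of all genes did. Lamp3 stood at 0.29 (adjusted p = 0.0511).

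In AM155 mice 1 member was called higher, against 7.82% of all genes, and 1 lower, against 32.7%. Sftpd was higher by 0.81 ± 0.156 on the log2 scale (limma adjusted p = 0.00018), with no overlap with Saline, as 4.31% of all genes had. Sftpb ran from 226 through 259 to 317 TPM and lay below every Saline mouse, as 12.7% of all genes did. Its log2 change was -0.39 ± 0.148 (limma adjusted p = 0.0369). The Sftpb call was lost under all 3 scalings, with changes of -0.19 to -0.11 and adjusted p values of 0.247 to 0.532. It was also lost on leaving out Saline 5, 8 or 10 or AM155 5, 6 or 8, 1 at a time (adjusted p 0.0524 to 0.0879). Sftpa1 had a log2 change of 0.18 (adjusted p = 0.202) as deposited, and 0.29 to 0.46 with adjusted p values of 0.00113 to 0.0273 under the 3 scalings. Without AM155 11 Sftpc was also called lower, at -0.31 (adjusted p = 0.0409).

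Sftpc had a second readout, a row in the table of circular RNA. Circular RNAs are closed loops that back-splicing makes from exons, and this table gives 1 TPM value per gene symbol with no junction. No label or header gives the lengths behind circular TPM, so circular and linear TPM are set side by side only as listed. The circular Sftpc row was above 0 in 21 of 27 libraries and ran over the widest range of any circular row.

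In Saline mice it was listed at 0 in 3 (numbers 2, 4 and 8), at 2.67 TPM in Saline 10 and at 10683 TPM in Saline 5. In CDG_HDM mice it ran from 0 through a median of 120 to 17753 TPM, with 2 mice at 0. AM155 mice had 29.6, 1297, 5123, 12008, 177260 and 187944 TPM, with none at 0. Dex_CDGHDM mice had 0, 2.98, 8235, 13354, 61473 and 197545 TPM. High and low values thus occurred side by side within each group. Sftpc was the only circular row above 100000 TPM, in AM155 5, AM155 6 and Dex_CDGHDM 4, where it made up 80.9, 81.7 and 82.1% of all circular TPM. The next highest circular value of any gene was 47018 TPM, for the club cell gene Scgb1a1.

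No comparison called circular Sftpc in limma across the 2271 circular rows tested, where 0.749% of rows passed in CDG_HDM against Saline, 0% in Dex_CDGHDM against CDG_HDM and 0% in AM155 against CDG_HDM. At an unadjusted p under 0.05 there were 113 rows in the dexamethasone and 114 in the AM155 comparison. With a pseudocount of 1 TPM the log2 differences were 4.43 ± 3.08, 2.89 ± 2.90 and 5.20 ± 2.90 (SE), with adjusted p values of 0.546, 0.970 and 0.957. A group with libraries at 0 makes such a difference depend on the pseudocount. Exact permutation tests of circular Sftpc TPM gave 0.585, 0.0495 and 0.0563, and 0.585, 0.169 and 0.169 adjusted over 6 tests.

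Linear Sftpc did not share this spread. In the 3 libraries with the highest circular row it stood at 14829, 12703 and 17162 TPM. Linear sums there were 642987, 542264 and 629353 TPM. CDG_HDM 12 had a linear sum of 628177 TPM with circular Sftpc at 96.6 TPM and a remainder outside both tables of 32.8%. That remainder was 13.8% in AM155 5, 22.8% in AM155 6 and 13.0% in Dex_CDGHDM 4. The cause of the low sums was not tested. As a share of linear TPM, Sftpc stood at 2.23% ± 0.119 in Saline and 2.27% ± 0.144 in AM155 mice. In CDG_HDM mice this share was 2.62% ± 0.289, and with dexamethasone it was 2.65% ± 0.203.

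**Figure D4:**
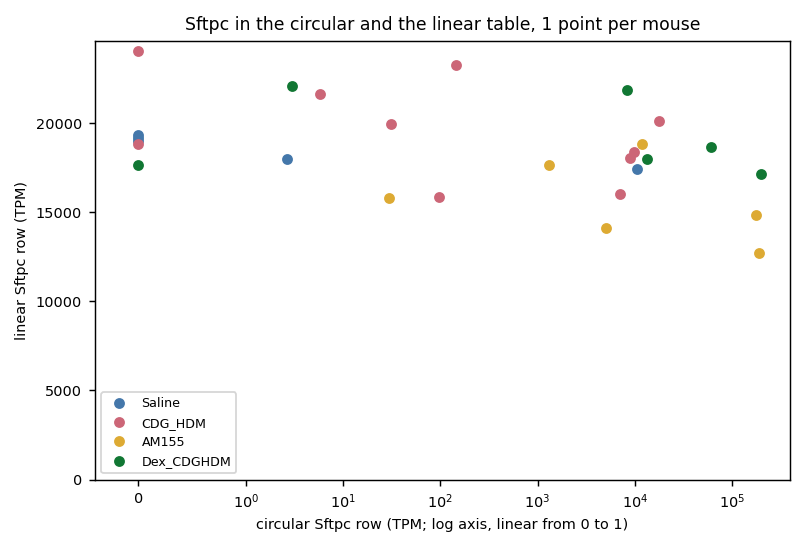
TPM of the circular Sftpc row (horizontal axis, logarithmic above 1 and linear from 0 to 1) against that of the linear Sftpc row (vertical axis from 0), 1 point per mouse. Circular values run from 0 to 197545 TPM and linear values from 12703 to 24047 TPM.

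Unlike Sftpc, Lamp3 had a circular row above 0 in all 27 libraries, with 135 ± 10.8 TPM in Saline and 144 ± 22.3 TPM in CDG_HDM mice (SD; exact permutation p = 0.417, and 0.501 adjusted over 6 tests). It stood at 128 ± 15.3 TPM in the AM155 group and 132 ± 29.4 TPM with dexamethasone. Circular Slc34a2 was above 0 in 5 mice, with a highest value of 2198 TPM in a Dex_CDGHDM mouse. Circular Etv5 was above 0 in 16 mice, Sftpd in 4, Abca3 and Sftpb in 2 each and Sftpa1 in 1, and Napsa and Lpcat1 had no circular row.

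Among the 10 CDG_HDM mice most members varied together, and the collectins varied mainly with each other. Pearson correlations of log2(TPM + 1) over the 45 pairs had a median of 0.79, and 30 passed a permutation test adjusted over the 45. Pairs of genes outside the 10 were not tested, and all genes of a library share its scale. The count thus does not set the members apart from other genes. Sftpc and Slc34a2 gave r = 0.96 and rho = 0.94 (permutation p = 6e-05 and 0.00017, adjusted 0.000731 and 0.00351). Sftpa1 and Sftpd gave r = 0.96 and rho = 0.95 (permutation p = 5e-05 and 0.00013, adjusted 0.000731 and 0.00351). Without the 2 mice farthest from the median of the first gene, r was 0.97 for the first pair and 0.92 for the second. The mice CDG_HDM 12, 13 and 14, highest in both collectin ratios to Sftpc, were not left out together.

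Collectins and the rest of the members were less alike. Pairs with Sftpd had a median r of 0.28, pairs with Sftpa1 0.40 and pairs with Slc34a2 0.91. Sftpb and Sftpd gave r = -0.05 and rho = 0.09 (permutation p = 0.882 and 0.812), and r = -0.47 without the 2 farthest mice. Lamp3 lay between, with r = 0.76 to Sftpa1 and 0.69 to Sftpd. With the median of ratios in place of the deposited scale, the median over the 45 pairs was 0.64. Pairs with Sftpd then had a median of 0.42, pairs with Sftpa1 0.51 and pairs with Slc34a2 0.84, so the gap between the collectins and Slc34a2 was smaller.

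**Figure D5:**
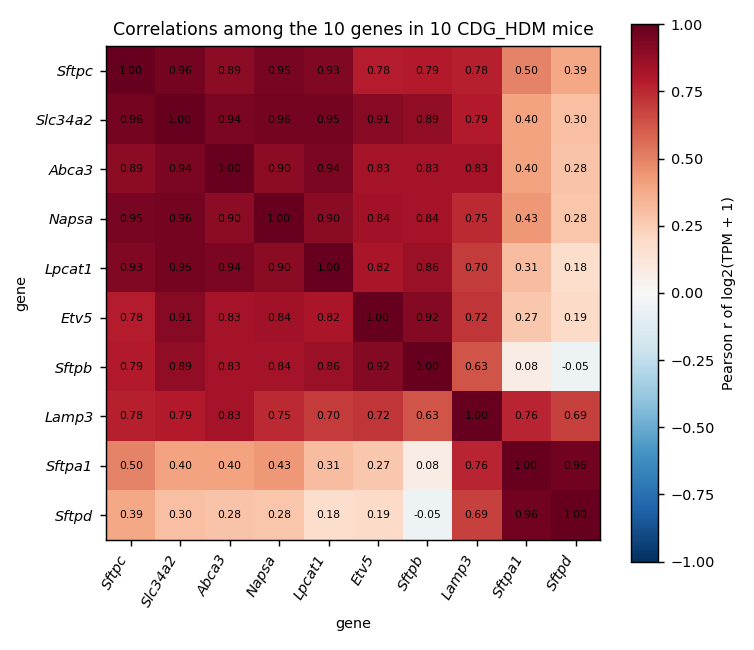
Pearson r of log2(TPM + 1) between each pair of the 10 genes (both axes) over the 10 CDG_HDM mice, red for positive and blue for negative values. Sftpa1 and Sftpd form 1 block at 0.96, Sftpc with Slc34a2 stands at 0.96 in another, and Sftpb with Sftpd is at -0.05.

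Over all 27 mice, as deviations from the group means, 5 genes outside the list followed the mean of the members most closely. They were Dmxl2 (r = 0.953), Pfkfb4 (0.950), Cd9 (0.942), Fat1 (0.942) and Anxa2 (0.940). These values are a description of the 27 libraries and share the scale of each library.

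The wider surfactant pathway was read in CDG_HDM against Saline from lists of genes. Each count stands against 9.35% of all genes higher and 22.8% lower as deposited, and against 26.2% and 15.5% with a common sum. Here and in the paragraphs that follow, counts and changes without a named scaling are as deposited, and they may shift with the scale. Of 19 genes of lipid synthesis 1 rose and 7 fell, with a median of -0.18, and with a common sum 6 rose and 3 fell, close to the shares of all genes. Fabp5, a fatty acid carrier that macrophages also express, rose by 0.77, while Agpat2, an enzyme of phospholipid synthesis, fell by 0.57 and the lipid transfer gene Stard10 fell by 0.42 (limma adjusted p = 1.84e-05, 0.000306 and 0.000556). Of 12 genes of processing and lamellar body traffic 4 rose and 3 fell, and 8 and 1 did with a common sum. Among them Ctsb and Ctsd, lysosomal cathepsins found in many cells, rose by 0.91 and 0.94, and Adgrf5, a receptor that restrains surfactant pool size and is also found on endothelium, fell by 0.88.

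Of 12 other alveolar type 2 genes 1 rose and 4 fell, counts too small to set these genes apart from the shares of all genes. The riser was Chil1, a chitinase-like protein also made by other cells, at 312 ± 43.3 TPM in Saline and 779 ± 128 TPM in CDG_HDM mice (log2 change 1.31 ± 0.117 SE, limma adjusted p = 9.02e-10). Acoxl fell by 0.70 and Ppp1r14c by 0.32. With a common sum 6 of these 12 rose and 2 fell, with the median of ratios 5 and 4, and with quantile normalization 4 and 4.

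Among 12 regulators of surfactant genes 1 rose and 6 fell. Foxa1, a forkhead factor, fell by 0.61, Nfib by 0.56 and Gata6 by 0.50. The riser was Cebpa, at 0.36. Nkx2-1, named after its value was seen because its letters lie in the promoters above, stood at 36.9 ± 0.789 TPM in Saline and 31.8 ± 5.86 TPM in CDG_HDM mice (adjusted p = 0.0975). Of 11 FGF and ERK pathway genes 0 rose and 7 fell, with a median of -0.42, and under the scalings 1 rose and 7 fell. Fgf1 fell by 0.78, and the feedback inhibitors Spry1 and Spred2 fell by 0.61 and 0.53.

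Of the 5 remaining collectins and ficolins tested, 0 rose and 1 fell, while 1 or 2 rose and 0 fell under the scalings. The gene that fell was the mannose-binding lectin gene Mbl1 (by 0.36), and no scaling called it. Of 17 genes of surfactant clearance and alveolar macrophages 8 rose and 4 fell. Csf2ra, a gene of the GM-CSF receptor through which macrophages are driven to clear surfactant, rose by 1.10, and Csf2rb2 rose by 0.81. Car4, a macrophage marker that capillary endothelium also carries, fell by 1.04.

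In whole lung, fewer cells of a type and less RNA per cell cannot be told apart, so the markers of neighbouring cells are given beside the members. Of 11 alveolar type 1 markers 10 fell and 0 rose, with a median of -0.62, where Hopx fell by 0.82, Akap5 by 0.81 and Gprc5a by 0.63. Their summed TPM was 3275 to 4098 in Saline and 1887 to 3206 in CDG_HDM mice. Of 9 club cell markers 8 fell and 0 rose, with a median of -0.87. Those with the smallest adjusted p were Cckar, Gsta3 and Cldn10, which fell by 0.80, 1.59 and 0.75. Their sum was 68479 to 80140 TPM in Saline and 23162 to 52416 TPM in CDG_HDM mice, with no marker at 0 throughout. It was 19743 to 32192 TPM in the AM155 group and 25880 to 50478 TPM with dexamethasone. Under the scalings 9 or 10 alveolar type 1 and 7 or 8 club cell genes fell. Their part in the values of Sftpa1, Sftpb and Sftpd was not tested.

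Of 10 pan epithelial genes 4 fell and 0 rose, among them Krt8, Krt18 and Cdh1, which fell by 0.56, 0.49 and 0.43. Of 12 genes of transitional alveolar epithelium, the state between type 2 and type 1 cells, 2 rose and 5 fell. Krt19 fell by 0.81 and Hbegf by 0.62, whereas Lgals3 rose by 0.74 (limma adjusted p = 0.000258). B and plasma cell genes rose in 5 of 10 cases and fell in 0. In Dex_CDGHDM and in AM155 against CDG_HDM, 0 genes of these lists were called in either direction. Scd1, the most abundant lipid synthesis gene there, stood at 429 ± 85.3 TPM in CDG_HDM, 308 ± 130 in AM155 and 273 ± 54.3 in Dex_CDGHDM mice, with limma adjusted p values of 0.590 and 0.549.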

How the data were processed

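Total RNA of 27 left lung lobes was ribosome-depleted and sequenced as stranded, paired-end libraries, per the labels, with 100M reads planned per sample and RNA integrity numbers of 6.9 to 8.6. The authors deposited TPM per gene symbol in a linear and a circular table. Per the submitters' processing notes, mm10 and CASAVA 1.9 were used, and the sources used here name no aligner, quantifier or annotation. Linear values were tested as log2(TPM + 1) for the 17437 genes that reached 1 TPM in 5 or more libraries. All 27 libraries entered 1 fit in limma 3.58.1 (R 4.3.3, eBayes with trend, two-sided, Benjamini-Hochberg). Circular values used a pseudocount of 3.48e-06 TPM. Exact and permutation tests (100000 resamples for correlations) were written in Python 3.11.15, two-sided, with ranks from scipy 1.17.1. The fit was also run on simulated data with independent noise per gene and no shared library scale, so that run does not bear on the scaling. The 10 members and the 13 other lists were chosen with earlier results of these data known. Named list genes are up to 3 per list with the smallest adjusted p, otherwise the most abundant gene. Some genes that went the other way are named as well. Ratios to Sftpc and both settings on circular Sftpc were added after the data were seen. Same-numbered mice did not deviate together (2 of 20 pairs with r over 0.1).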

Additional observations from a re-analysis of the deposited data

Results flagged for a closer look

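In 5 of 48 groups of values 1 mouse stood apart by the gap to its nearest neighbour, where chance gives about 1 in 20. Circular Sftpc was 10683 TPM in Saline 5, against a group median of 0, and 197545 TPM in Dex_CDGHDM 4, against a median of 10795. Circular Lamp3 was 117 TPM in Saline 2, against a median of 140. Linear Lpcat1 was 93.3 TPM in Saline 4 (median 112) and 95.4 TPM in Dex_CDGHDM 3 (median 123).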

How the results depend on the processing

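Of 2022 recomputed values 1873 kept their direction and side of the threshold or moved little. The count of members called higher in CDG_HDM against Saline was 3, and 8 with a common sum, 6 with the median of ratios, 6 with quantile normalization and 1 with a replicate block. Leaving out 1 library gave 2 to 4. Those scalings also raised the share of all genes called higher in CDG_HDM against Saline, from 9.35% to 26.2, 22.4 and 20.7%. In Dex_CDGHDM against Saline the count of 2 stood against 7.59% of all genes as deposited. It became 8, 6 and 6 under those scalings, 4 with array weights and 1 with the replicate block. Shares of all genes under the scalings are not given for the treated groups against Saline, so these counts do not set the members apart. In AM155 against Saline the higher count of 1 became 5, 4 and 5, and 2 with circular Sftpc taken off the scale. The lower count of 1, Sftpb, became 0 under the 3 scalings, with circular Sftpc off the scale, without Saline 4 and AM155 6 and without the 3 libraries of highest circular Sftpc, and was 0 to 2 on leaving out 1 library.

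Of the values that changed sign, none was called under either setting. For CDG_HDM against Saline these were Abca3 (-0.0089 without Saline 4 and AM155 6, -0.026 to 0.043 on leaving out 1 library) and Etv5 (0.0044 with a common sum). For Dex_CDGHDM against CDG_HDM, Sftpc was at 0.020 with a common sum, 0.045 with circular Sftpc off the scale, 0.048 with the replicate block and 0.0092 without the 3 libraries. Etv5 there was at 0.038, 0.0070 and 0.026 under the scalings, 0.062 with circular Sftpc off the scale, 0.039 with the block and 0.0036 without the 3 libraries. With array weights Sftpb was at -0.043 and Slc34a2 at -0.021. Leaving out 1 library gave -0.018 to 0.080 for Sftpa1, -0.059 to 0.079 for Sftpb, -0.064 to 0.012 for Sftpc, -0.020 to 0.14 for Sftpd, -0.040 to 0.076 for Slc34a2, -0.011 to 0.093 for Lamp3 and -0.051 to 0.044 for Etv5. For AM155 against CDG_HDM, Sftpd was at 0.11, 0.079 and 0.12 under the scalings, 0.089 with circular Sftpc off the scale, 0.012 with array weights, 0.16 with the block, 0.0013 without Saline 4 and AM155 6 and 0.035 without the 3 libraries, and at -0.065 to 0.053 on leaving out 1 library. Lpcat1 was at 0.020 with a common sum, 0.013 with quantile normalization, 0.0076 without Saline 4 and AM155 6, 0.039 without the 3 libraries and -0.16 to 0.0076 on leaving out 1. Etv5 was at 0.049, 0.016 and 0.043 under the scalings and 0.026 with circular Sftpc off the scale. The cause of these shifts was not tested. With the replicate block Sftpa1 in CDG_HDM against Saline stood at 0.20 (limma adjusted p = 0.327), but the mice share only a number, so this is no paired result. Depth is unknown, and circular TPM near 0 may rest on few reads.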
